A study of Eleocharis dulcis with 24 samples.

Results

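Corms of cultivated Eleocharis dulcis at middle swelling were compared with corms of wild Eleocharis dulcis at late swelling, to see which differences between the origins were still present when the stages were shifted by one. Eleocharis dulcis, the Chinese water chestnut, is a sedge whose corm is a swollen underground stem. The genes were selected on the measured values themselves: a gene was kept when its TPM (a length-corrected transcript abundance, scaled to a fixed total per library) reached 1 in at least 3 of these 6 libraries. This kept 22849 of the 35975 genes in the table, or 63.5%. The pair of stages was itself proposed with earlier results of these data known, so values of this comparison and the calls counted in it are a description, and p-values of single genes are given only for comparisons of other libraries.

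The study sequenced total RNA from corm tissue of both origins at initial swelling, middle swelling, late swelling and maturity, with 3 biological replicates per group and 24 libraries in all. The 2 groups compared here are therefore 3 libraries of cultivated corms at middle swelling and 3 libraries of wild corms at late swelling. The labels name no plant line, growing site, plant age, sampling day or treatment for either origin, so any of these cannot be told apart from origin, and here stage differs as well. As background, a corm forms when the tip of an underground stem stops elongating and its tissue thickens by cell division and expansion, and the swelling tissue becomes a store of starch and sugars. Genes of starch and sugar metabolism, storage proteins, cell walls and hormones are the ones usually followed in such organs. The files pair no gene ID with a name or a function, so genes appear by ID alone and no pathway or cell type marker could be read. The labelled tissue could for the same reason not be checked against markers.

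Column totals lay between 999991 and 1000002, so the table keeps no sequencing depth and the precision of a value rests on the spread of the 3 replicates. Across the 27050 genes tested (those reaching a TPM of 1 in at least 3 of 24 libraries), Spearman correlations between replicates were 0.988 to 0.990 within cultivated middle swelling and 0.987 to 0.989 within wild late swelling. No library of either group stood apart in these correlations. Of the 22849 genes, 16782 reached a TPM of 1 in all 6 libraries. Another 1552 were kept through cultivated middle swelling alone, with all 3 of its libraries and no wild library at 1 or more, and 3042 were kept through wild late swelling alone. Genes kept through 1 group alone had to differ between the groups. Close to the threshold, 151 genes had the third highest of their 6 values less than 5% above it, with a median mean TPM of 0.763 in cultivated and 1.08 in wild corms, and 145 genes with that value at most 5% below it were left out, with medians of 0.777 and 1.03.

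The groups differed across most of the transcriptome, with nearly equal numbers on each side among all kept genes. Differences are given as cultivated minus wild on the scale of log2(TPM + 1), tested with limma across all genes, and a gene counts as 2-fold different when its Benjamini-Hochberg adjusted p was under 0.05 and its difference was at least 1 log2 unit. Of the 22849 genes, 6303 (27.6%) were at least 2-fold higher in cultivated middle swelling and 6332 (27.7%) were at least 2-fold lower. Over all 27050 genes tested, 23.5% were higher and 24% lower by the same rule, 47.4% together. Since the rule used these libraries, nothing is read from that gap. The near balance did not hold among the 16782 genes at 1 TPM or more in all 6 libraries. Of these, 4819 (28.7%) were higher in cultivated middle swelling and 3190 (19%) lower. At any size of difference, 20790 genes (91.0%) passed the adjusted p, against 86% of all genes tested. The 3 cultivated and the 3 wild values did not overlap for 20670 genes (90.5%), against 85.7% of all genes tested. The 95% confidence interval of the difference lay within 1 log2 unit of 0 for 8201 genes (35.9%). For those genes a difference of 1 unit or more on this scale was outside the interval. For genes of low TPM, 1 unit on this scale is more than 2-fold in TPM. With a pseudocount of 0.1 in place of 1, the interval lay within 1 unit for 6555 genes. In bulk tissue, fewer cells of a type and less RNA per cell cannot be told apart.

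**Figure D1:**
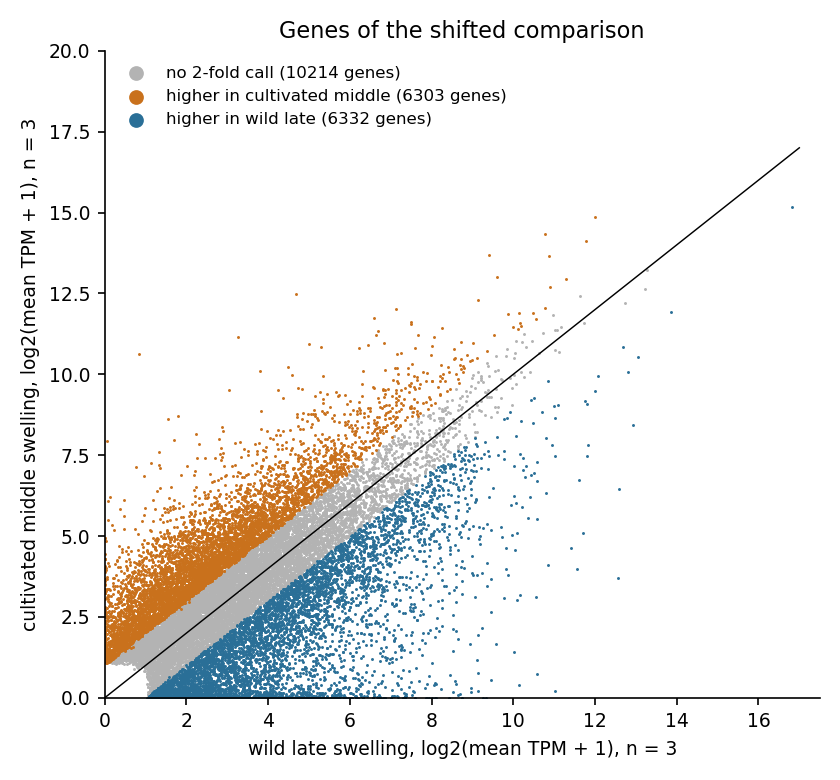
Mean abundance of each of the 22849 genes in wild late swelling (horizontal) and cultivated middle swelling (vertical), both as log2(mean TPM + 1) over 3 libraries, with the line of equality. Orange points are the 6303 genes at least 2-fold higher in cultivated corms, blue points the 6332 at least 2-fold lower, and grey points the rest; both colours lie along the whole range of abundance.

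The scaling moved the split by direction. When libraries were rescaled by their median ratio over genes (median-of-ratios scaling), 4981 genes were higher in cultivated corms and 7525 lower, so the higher share of the 2-fold genes went from 49.9% to 39.8%. It also moved the median difference over all genes tested from 0 to -0.19 and that over the 22849 genes from 0.12 to -0.17. All 4981 higher genes of the scaled values were also higher as deposited, where they made up 79.0% of the higher list, and all 6332 genes lower as deposited were also lower after scaling, where they made up 84.1% of the lower list.

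Both directions were present along the range of abundance. A gene with a low mean could be kept through the group where it was high, so the split of low genes follows in part from the selection and is not read. Among the 5728 genes from 10 to under 30 TPM, 31.0% were higher and 24.4% lower. Among the 94 genes at 1000 TPM or more, 39 (41.5%) were higher and 28 (29.8%) lower. The 1571 genes whose IDs lack the EdulChr prefix were higher in 28.5% and lower in 29.8%.

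Only the genes with the most extreme differences are named, by ID. The naming rule asked for a 2-fold call, no overlap between the groups and a mean of 10 TPM or more in the higher group. It was met by 4071 higher and 3626 lower genes. The rule only chose which genes to name, and no share over all genes tested stands beside these counts. EdulChr19G00080780 stood at 1573, 1599 and 1615 TPM in the cultivated libraries and at 0.78, 0.49 and 1.11 TPM in the wild ones, a difference of 9.81 ± 0.09 (SE) log2 units. The cultivated libraries were all far above the wild ones and close to each other. In the comparisons that used other libraries, this gene was higher in cultivated corms by 5.66 at initial swelling (limma adjusted p = 3.04e-22) and by 5.04 at maturity (limma adjusted p = 8.9e-22).

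EdulChr2G00006240 stood at 2026, 2413 and 2422 TPM in cultivated middle swelling and at 16.8, 7.03 and 2.15 TPM in wild late swelling. The groups were far apart although the wild libraries spread nearly as widely as their mean, 8.67 ± 7.48 TPM (SD, n = 3). Its difference was 8.22 ± 0.63 (SE) log2 units, and it ranged from 7.57 without the wild library at 2.15 TPM to 8.82 without the one at 16.8 TPM. In cultivated corms it went on to a mean of 21143 ± 1110 TPM (SD, n = 3) at maturity.

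On the wild side, EdulChr25G00102080 was near 0 in every library of cultivated middle swelling, at 0.17, 0.13 and 0.20 TPM. The gene stood at 1996, 2119 and 2076 TPM in wild late swelling, a difference of -10.79 ± 0.04 (SE) log2 units. It was the lowest of all differences that met the rule, and because the cultivated values are near 0 its size depends on the pseudocount of 1. EdulChr78G00262900 stood at 0.93, 0.36 and 0.69 TPM in cultivated middle swelling and at 1510, 1561 and 1484 TPM in wild late swelling, a difference of -9.85 ± 0.22 (SE) log2 units. In wild corms this gene moved strongly between stages, with means of 494, 9.54, 1518 and 83.5 TPM from initial swelling to maturity. Against wild middle swelling in place of late swelling, its difference was -2.58 log2 units.

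**Figure D2:**
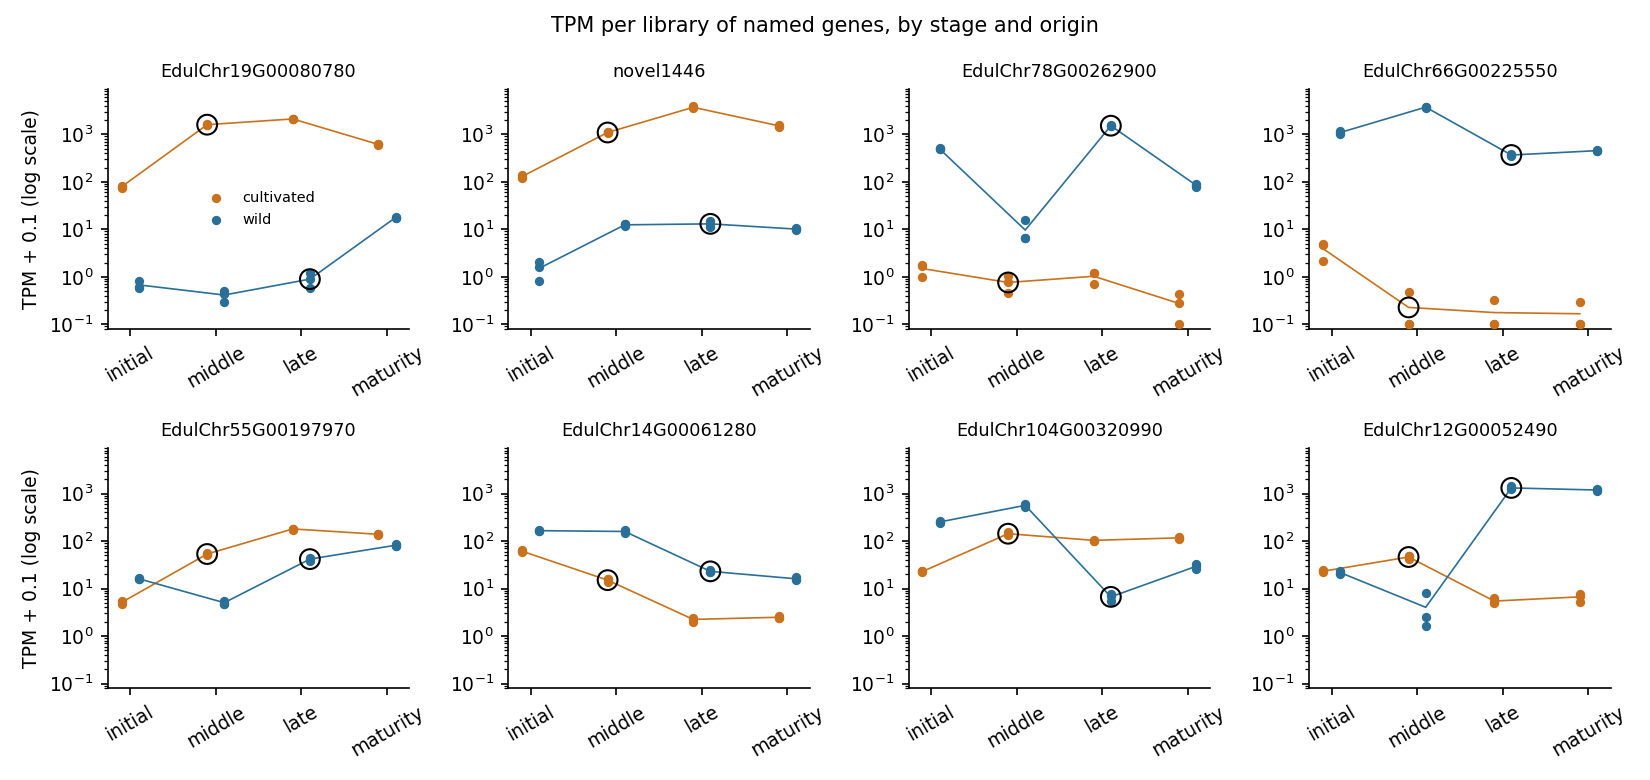
TPM of named genes in every library of the 8 groups on a log scale, with cultivated and wild libraries in separate colours and 3 points per group. Genes such as EdulChr66G00225550 differ between the origins at every stage, while EdulChr78G00262900 is at a mean of 9.54 TPM in wild middle swelling and 1518 TPM in wild late swelling.

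Next, each gene's shifted difference was set beside its differences at equal stages. Both equal-stage comparisons share 3 libraries with the shifted one, so the counts below follow in part from shared values and are a description. At middle swelling, 12802 of the 22849 genes (56.0%) were 2-fold different between the origins, 4625 higher and 8177 lower in cultivated corms. All genes tested gave 55.1% at that stage, 17.2% higher and 37.9% lower, and 89.7% passed the adjusted p at any size. Of the 12802 genes, 8951 (69.9%) remained 2-fold different in the same direction when wild late swelling replaced wild middle swelling, 3709 (29.0%) were no longer 2-fold different, and 142 (1.11%) were 2-fold different in the other direction. Another 3542 genes, 28.0% of the shifted list, were 2-fold different in the shifted comparison but not at middle swelling. For late swelling the matching count was 1696 genes (13.4%).

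At late swelling, 13886 genes (60.8%) were 2-fold different, 8008 higher and 5878 lower in cultivated corms. All genes tested gave 54.2%, 31.9% higher and 22.3% lower, with 88.4% past the adjusted p. The balance turned with the scaling, since rescaled values gave 4823 higher and 7863 lower genes. Of the 13886 genes, 10917 (78.6%) remained when cultivated middle swelling replaced cultivated late swelling, 2947 (21.2%) were lost and 22 (0.158%) turned. After median-of-ratios scaling the shares that remained were 75.0% from middle swelling and 83.0% from late swelling.

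A set of 8178 genes was 2-fold different in one direction at both equal stages. Together these comparisons hold all 6 libraries of the shifted one, so the counts in this set follow in part from shared values. No share over all genes tested stands beside them, and they are a description. Of the 8178 genes, 7770 (95%) remained in the shifted comparison, 3509 higher and 4261 lower in cultivated corms, and none turned. The other 408 were below 2-fold when the stages were shifted, and for 206 of them the 95% confidence interval lay within 1 log2 unit of 0.

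The genes named from that group were the first among 107 that met the rule, ranked by the smaller of both equal-stage differences. EdulChr55G00197970 stood at 50.4, 53.0 and 56.3 TPM in cultivated middle swelling and at 38.8, 42.6 and 43.3 TPM in wild late swelling. The groups did not overlap, but the difference was 0.35 log2 units with a 95% confidence interval of 0.22 to 0.47, against 3.19 at middle swelling and 2.09 at late swelling. Its mean rose from 4.94 TPM in wild middle to 41.6 TPM in wild late swelling, and from 53.2 to 180 TPM between the same stages of cultivated corms. After median-of-ratios scaling the shifted difference was 0.02.

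EdulChr19G00077640 stood at 10.4, 9.44 and 10.8 TPM in cultivated and at 7.65, 6.90 and 7.48 TPM in wild libraries. Its difference of 0.42 log2 units had an interval of 0.09 to 0.76, against 3.07 at middle and 2.34 at late swelling. Without the third cultivated library it was 0.38 and without the second wild one 0.39, and in both cases it was no longer called.

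In the lower direction, EdulChr14G00061280 stood at 15.4, 15.4 and 14.0 TPM in cultivated and at 24.5, 22.5 and 21.9 TPM in wild libraries, a difference of -0.59 log2 units with an interval of -0.72 to -0.46. At equal stages its differences were -3.33 and -2.93. EdulChr2G00005020 stood at 8.66, 8.67 and 8.12 TPM in cultivated and at 10.2, 10.98 and 10.4 TPM in wild libraries, a difference of -0.28 with an interval of -0.41 to -0.15. Its difference was -2.63 at both equal stages. For both genes the values of the groups lay close together without overlapping. After median-of-ratios scaling the shifted differences were larger in size, at -0.91 for EdulChr14G00061280 and -0.59 for EdulChr2G00005020.

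For 91 genes the shifted difference met the rule in one direction and an equal-stage difference met it in the other. EdulChr12G00052490 stood at 48.2, 41.3 and 48.7 TPM in cultivated middle swelling and at 1220, 1295 and 1431 TPM in wild late swelling, a difference of -4.81 ± 0.26 (SE) log2 units. The wild mean was 3.93 ± 3.38 TPM (SD, n = 3) at middle swelling, so the difference there was 3.46 log2 units in the other direction. EdulChr111G00333760 stood at 112, 120 and 108 TPM in cultivated and at 1284, 1179 and 1276 TPM in wild libraries, a shifted difference of -3.45 ± 0.14 (SE), against 3.03 at middle swelling.

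In the other direction, EdulChr104G00320990 stood at 152, 140.5 and 136 TPM in cultivated and at 7.48, 6.84 and 5.44 TPM in wild libraries, a shifted difference of 4.25 ± 0.09 (SE), against -1.98 at middle swelling. EdulChr19G00079870 stood at 102.5, 103 and 113 TPM in cultivated and at 25.6, 24.7 and 25.7 TPM in wild libraries, a shifted difference of 2.02 ± 0.07 (SE), against -4.48 at late swelling. In the first 3 of these 4 genes the wild mean moved far between middle and late swelling. It went from 3.93 to 1315, from 13.1 to 1246 and from 565 to 6.59 TPM. The cultivated mean went from 106 to 0.18 TPM in EdulChr19G00079870 and from 113 to 0.31 TPM in EdulChr111G00333760. In EdulChr12G00052490 the cultivated mean went from 46.1 to 5.35 TPM.

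The comparison was then placed among all 16 pairs of a cultivated and a wild stage, over all 27050 genes tested. Cultivated middle swelling had 15688 genes 2-fold different from wild initial swelling, 14901 from wild middle, 12827 from wild late and 11603 from wild maturity. The count was thus lower against late than against middle swelling and lowest against maturity, an order that also held after scaling, with 15177, 14258, 12888 and 11551 genes. Wild late swelling had 13892 genes 2-fold different from cultivated initial swelling, 12827 from cultivated middle, 14655 from cultivated late and 12706 from cultivated maturity. Here the order was not the same after rescaling, which gave 11114, 12888, 13396 and 13027. The fewest of the 16 pairs, 9779 genes as deposited and 8946 after scaling, separated cultivated initial from wild middle swelling. These pairs share libraries, and the counts are a description with no test of one pair against another.

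**Figure D3:**
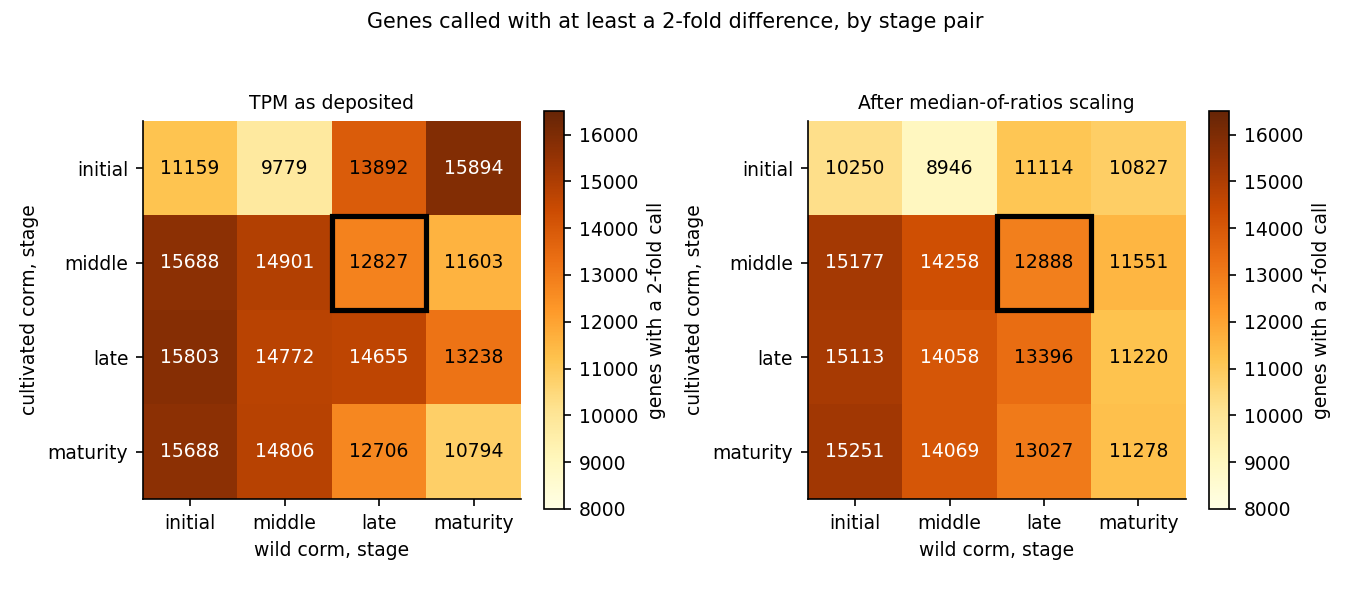
Number of genes at least 2-fold different for each of the 16 pairs of a cultivated stage and a wild stage, of 27050 tested, with TPM as deposited and after median-of-ratios scaling. Cultivated middle against wild late swelling gave 12827 and 12888 genes, between 11603 against wild maturity and 14901 against wild middle swelling as deposited.

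Spearman correlations between libraries across genes gave the same placing for cultivated middle swelling. They were 0.660 to 0.666 with wild late, 0.594 to 0.60 with wild middle and 0.753 to 0.758 with wild maturity. Wild late swelling gave 0.708 to 0.716 with cultivated initial, 0.606 to 0.611 with cultivated late and 0.628 to 0.633 with cultivated maturity. For wild late swelling this was the order of the counts after scaling, not of those as deposited. All these correlations were far below the values between replicates.

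The shifted comparison shares no library with the following 3, which share none with each other either and were not used by the rule: cultivated late against wild middle swelling, which shifts the stages the other way, and the equal-stage comparisons at initial swelling and at maturity. In cultivated late against wild middle swelling, 5562 of the 22849 genes were higher in cultivated corms and 7122 lower. All genes tested gave 21.6% higher and 33% lower there, 54.6% together, with 89.7% past the adjusted p. Of the 6303 genes higher in the shifted comparison, 4219 were higher here too, 66.9% of the shifted list and 75.9% of the other, while 92 were 2-fold lower. Of the 6332 lower genes, 4932 were lower here too, 77.9% and 69.3% of the lists, while 116 were 2-fold higher. After rescaling, 3570 of 4981 higher and 5456 of 7525 lower genes were different in the same direction.

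At initial swelling, 4938 genes were higher in cultivated corms and 4656 lower, against 21.1% and 20.2% of all genes tested, 41.3% together, with 86.3% past the adjusted p. Of the shifted lists, 3404 higher genes (54.0%) and 3481 lower genes (55.0%) were 2-fold different in the same direction, which were 68.9% and 74.8% of the initial lists. The opposite direction was called for 94 and 246 genes. After rescaling, the initial comparison turned to 3529 higher and 5426 lower genes, and 2311 of the 4981 higher and 4264 of the 7525 lower genes of the rescaled shifted lists were different in the same direction.

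At maturity, 7324 genes were higher and 3141 lower, against 27.7% and 12.2% of all genes tested, 39.9% together, with 78% past the adjusted p. Of the shifted lists, 4794 higher genes (76.1%) and 2466 lower genes (38.9%) were 2-fold different in the same direction, which were 65.5% and 78.5% of the maturity lists. The balance at maturity turned with the scaling, since the rescaled values gave 4967 higher and 5792 lower genes. The unequal overlap narrowed as well, to 3251 of 4981 higher and 4109 of 7525 lower genes.

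In all 4 comparisons, 2330 genes were 2-fold higher in cultivated corms, 37.0% of the higher list, and 1414 were 2-fold lower, 22.3% of the lower list. After median-of-ratios scaling these counts were 1466 and 2265. No share over all genes tested stands beside them, so they describe the kept genes only. Both scalings shared 1462 of the higher genes and 1404 of the lower genes, and no gene was in the higher list of one scaling and the lower list of the other.

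Of those genes, 1211 higher and 673 lower met the naming rule in each comparison. They were ranked by the smallest of their 4 absolute differences. By that measure the first of the higher genes was EdulChr2G00006240, with differences of 10.42 in cultivated late against wild middle swelling (limma adjusted p = 1.51e-12), 7.25 at initial swelling (limma adjusted p = 9.03e-10) and 7.91 at maturity (limma adjusted p = 2.22e-10). At initial swelling its wild libraries were listed at 9.41, 0 and 0 TPM, and without the first of them the difference was 8.37. The second was novel1446, at 1125, 1046 and 1108 TPM in cultivated middle swelling and at 13.0, 11.2 and 14.6 TPM in wild late swelling. It was higher in cultivated corms by 8.12, 5.79 and 7.10 log2 units in the same 3 comparisons. No p is given for this gene, since the rule that named it used these same comparisons. EdulChr2G00006240 above and EdulChr25G00102080 below were also named from the shifted difference alone.

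By the same measure the first of the lower genes was EdulChr66G00225550, listed at 0.38, 0 and 0 TPM in cultivated middle swelling and at 353, 371 and 376 TPM in wild late swelling. Its wild level was highest at middle swelling, at 3731 ± 61.5 TPM (SD, n = 3), and no cultivated group exceeded a mean of 3.82 TPM. EdulChr25G00102080, the second, was at -7.35, -8.55 and -9.60 log2 units in the comparisons of other libraries, with limma adjusted p of 1.24e-28, 1.18e-29 and 2.04e-30. In both genes every wild library lay above every cultivated one.

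The genes that differed also held most of the summed TPM. The 6303 higher genes held 55.0%, 55.7% and 55.6% of all TPM in the cultivated libraries and 11.6%, 11.8% and 11.6% in the wild ones. The 6332 lower genes held 11.1%, 11.1% and 11.2% in the cultivated libraries and 57.2%, 56.3% and 56.5% in the wild ones. Both shares follow from how the lists were made. In libraries that did not make the lists, the higher genes held 57.1% to 57.4% in cultivated late and 14.2% to 14.3% in wild middle swelling, 35.0% to 38.0% and 13.1% to 13.2% at initial swelling, and 47.2% to 48.0% and 24% to 24.3% at maturity. The lower genes held 9.08% to 9.15% in cultivated late and 46.5% to 47.3% in wild middle swelling. The cultivated and wild libraries did not overlap in any of these pairs.

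**Figure D4:**
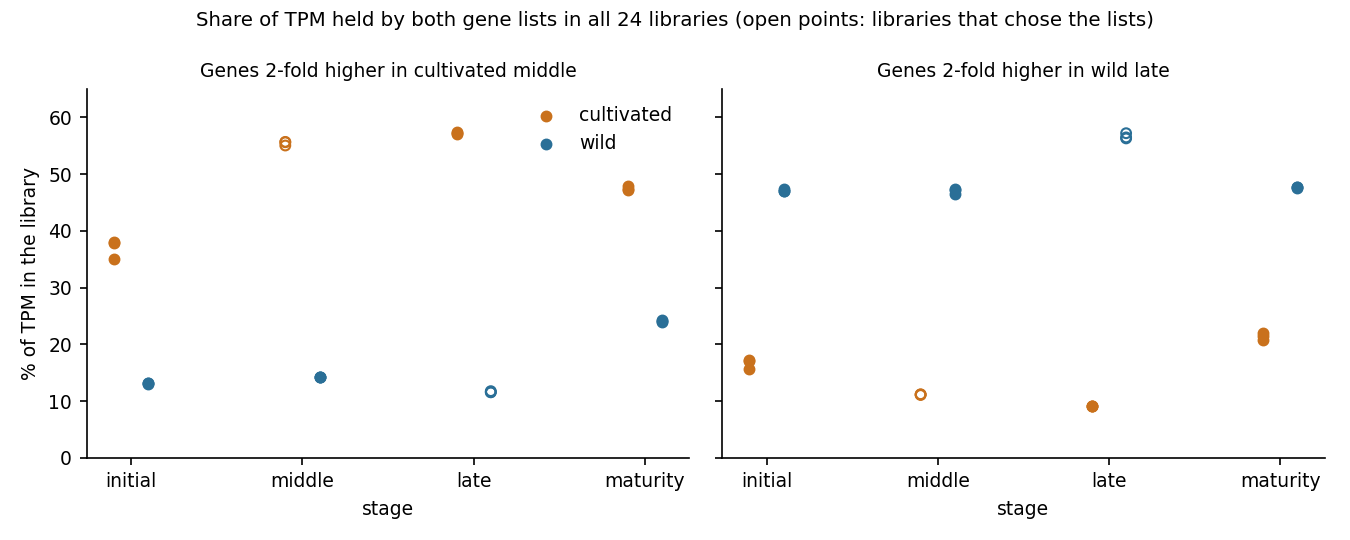
Share of all TPM, in percent, held in each library by the 6303 genes higher in cultivated middle swelling and by the 6332 genes lower there, for the 8 groups with 3 points each. The higher list holds 55.0% to 55.7% in cultivated middle and 11.6% to 11.8% in wild late swelling, and cultivated libraries of the other stages also lie above the wild ones.

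A single ID without the prefix, novel1867, was the most abundant gene of both groups. It stood at 36697, 35813 and 37356 TPM in cultivated middle swelling and at 128668, 109081 and 110159 TPM in wild late swelling, a difference of -1.66 ± 0.07 (SE) log2 units. Without it, the lower list held 7.46% to 7.5% of TPM in the cultivated and 44.3% to 45.5% in the wild libraries. In libraries the rule did not use, novel1867 was lower in cultivated corms, at -4.23 log2 units at initial swelling (limma adjusted p = 2.66e-21) and -0.91 at maturity (limma adjusted p = 2.95e-10).

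The second most abundant gene of wild late swelling was novel1789, at 15784, 14405 and 14726 TPM, against 3701, 4315 and 3744 TPM in cultivated middle swelling. That of cultivated middle swelling was EdulChr8G00035780, at 29578, 30918 and 28160 TPM, against 3944, 4217 and 4022 TPM in wild late swelling. The latter gene was higher in cultivated corms by 3.87 log2 units at initial swelling (limma adjusted p = 1.52e-22). At maturity it was higher by 0.67 (limma adjusted p = 4.46e-10) as deposited and at -0.03 after scaling.

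Of the 10 most abundant genes of cultivated middle swelling, 8 were 2-fold higher there and 1, novel1867, was lower. Of the 10 most abundant of wild late swelling, 7 were 2-fold higher in wild corms and 3 were not 2-fold different. Each list was ranked by the mean of 1 compared group, which favours genes higher in that group, so these counts are a description. Among the 94 genes with a mean of 1000 TPM or more over the 6 libraries, 41.5% were higher in cultivated corms and 29.8% lower. The lists shared 2 genes. Besides novel1867 this was EdulChr70G00237910, at 9900, 9922 and 8909 TPM in cultivated and at 9952, 9978 and 9652 TPM in wild libraries, singled out after its values were seen. Its groups nearly coincided, with a difference of -0.04 log2 units and a 95% confidence interval of -0.18 to 0.09, although after scaling the difference was -0.38.

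Per library, the 10 most abundant genes held 16.2%, 16.4% and 16.4% of TPM in cultivated middle swelling and 20.6%, 18.7% and 18.7% in wild late swelling. The difference of means was -3.00 percentage points. No p is read for these values, since an exact test of 3 against 3 cannot go below 0.1. With the 100 most abundant genes the difference was 0.33, in the other direction. IDs without the EdulChr prefix held 8.71%, 8.22% and 8.48% of TPM in cultivated and 18.7%, 16.5% and 16.9% in wild libraries, a difference of -8.90 points. Without novel1867 it was -0.96 points. The number of the 22849 genes at a TPM of 1 or more was 19432, 19419 and 19411 in cultivated and 20941, 20879 and 20872 in wild libraries, which the selection rule bears on directly.

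Some genes were kept through 1 group alone, with every library of the other listed at 0. In all 3 cultivated middle libraries, 825 genes were listed at 0 while standing at 1 TPM or more in all 3 wild late libraries, with a median wild mean of 4.34 TPM. The opposite pattern held for 70 genes, with a median cultivated mean of 3.47 TPM and none above 29.9 TPM, against 643 TPM for the highest of the 825. TPM carries no counts, so a listed 0 is not shown to be an absence of transcript. No share over all genes tested stands beside the numbers of genes given here and in the next paragraph, so they are a description.

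The 825 genes were then followed through the other stages. Of them, 264 (32.0%) stood at 1 TPM or more in all 3 libraries of cultivated initial swelling. The pattern was also found for 536 (65%) in cultivated late against wild middle swelling, but for 99 (12%) at initial swelling and 104 (12.6%) at maturity, and for 17 (2.06%) in all 4 comparisons. Of the 70 genes listed at 0 in wild late swelling, 34 (48.6%) had the pattern at initial swelling, 41 (58.6%) at maturity and 21 in all 4. Among them, 4 had at least 1 TPM in every wild initial library.

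Gene IDs carry a number after the EdulChr prefix, and the genes fell into 111 groups by it. What the number stands for is not given in the sources used here. Over the 172 kept genes that begin with EdulChr47, noticed after values were seen and therefore given with no test, the median difference was -0.94 log2 units, while the medians of the other 110 groups lay between -0.27 and 0.53. Of the 172, 16 (9.30%) were 2-fold higher in cultivated corms and 82 (47.7%) lower, against 20% to 38.4% and 18.2% to 36.8% in the other groups. Differences were below 0 for 126 of the 172 (73.3%), against 35.7% to 55.9%.

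Comparisons of other libraries gave medians of -1.10 in cultivated late against wild middle swelling (other groups -0.71 to 0.23), -0.79 at initial swelling (-0.24 to 0.42) and -0.73 at maturity (0.00 to 0.83). After median-of-ratios scaling the 4 medians were -1.23, -1.10, -0.96 and -1.30, each also below the lowest of the other groups. The summed TPM of these 172 genes was 2935, 2868 and 3017 in cultivated middle swelling and 6032, 6224 and 6250 in wild late swelling. Over all stages it was 2405 to 3571 in the 12 cultivated libraries and 5644 to 6568 in the 12 wild ones, without overlap. Within the group, 8 blocks of 14 or 15 consecutive IDs with a mean of at least 3 TPM had shifted medians from -1.70 to 0.17, with 1 block above 0, and all 8 were below 0 in the other 3 comparisons.

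**Figure D5:**
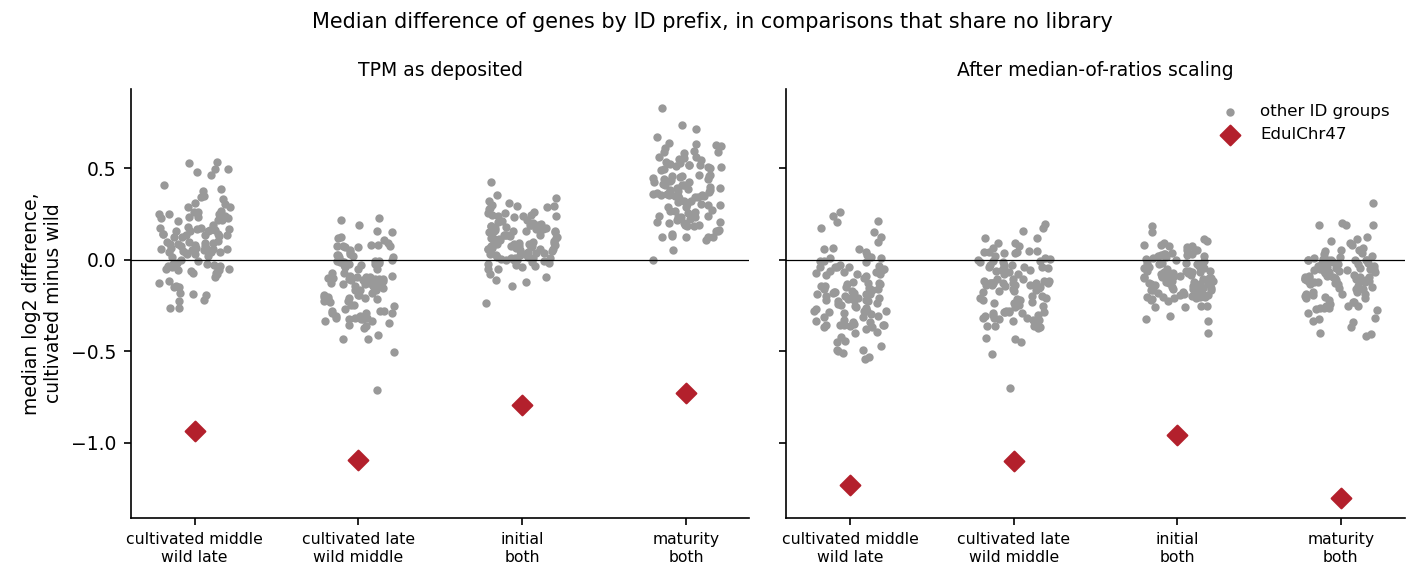
Median log2 difference, cultivated minus wild, of the kept genes by the number in their ID, for the shifted comparison and the 3 that share no library with it, with TPM as deposited and after scaling. Grey points are 110 ID groups and the red diamond is the EdulChr47 group of 172 genes, which lies below every other group in each comparison, at -0.94 in the shifted one as deposited.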

How the data were processed

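Total RNA libraries from 24 corm samples (2 origins, 4 stages, 3 replicates per group) were made with a TruSeq RNA library kit and run on a DNBSEQ-T7 instrument, per the labels. The authors deposited 1 table of TPM values. The submitters' processing notes name HISAT2 2.0.4, StringTie 2.1.6 and DESeq2, without a role. A genome build, an annotation and strandedness were not given in the sources used here. Columns were matched to samples by the origin, stage and number in the titles, and no column was left over. TPM keeps no depth, so no counting interval is given, and a gene with a large share lowers all others.

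Values of log2(TPM + 1) for 27050 genes (reaching a TPM of 1 in at least 3 of 24 libraries) were fitted with limma 3.58.1 in R 4.3.3, with 8 group means, a trended prior and Benjamini-Hochberg adjustment over all genes, and tested on simulated data beforehand. Intervals are 95% confidence intervals from the same fit. A fold on this scale understates changes of low genes. The genes, the pair of stages and the tests were chosen with earlier results of these data known.

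Since no table pairs IDs with names, 2 IDs per direction were named in each of 4 classes: the largest shifted difference; the same direction in the shifted comparison and the 3 comparisons of other libraries; 2-fold at both equal stages with a shifted interval within 1 log2 unit; and opposite directions in the shifted and an equal-stage comparison. Named genes passed an adjusted p of 0.05, were 2-fold different, averaged 10 TPM or more in the higher group and did not overlap between groups; for the third class these levels applied to the equal-stage comparisons. Ranks used the shifted difference, the smallest of the 4 differences, the smaller equal-stage difference, and the smaller of the opposed differences. The 2 most abundant genes of each group were also named. The EdulChr47 group, the remaining genes of the 10 most abundant and the gap between middle and late swelling were added after values were seen. Alternatives were the pseudocount, filters, scaling, trend, replicate block, fold, fitting only the groups compared and leaving out each library.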

Additional observations from a re-analysis of the deposited data

Results flagged for a closer look

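For 7 of the named genes, every cultivated library lay on one side of the wild libraries at middle swelling and on the other side at late swelling. The shifted comparison takes 1 group from each of these equal-stage comparisons. The gap between the stages is given with its SE from limma. Each gene stands here because its signs were seen to be opposite, and both groups of the shifted comparison enter the gap, so the difference between the stages was not tested in independent libraries and no p is given.

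EdulChr111G00333760 was higher in cultivated corms by 3.03 log2 units at middle swelling and at -9.92 at late swelling, a gap of 12.95 ± 0.20 (SE). EdulChr12G00052490 went from 3.46 to -7.70, a gap of 11.16 ± 0.37. EdulChr19G00079870 went from 3.93 to -4.48, a gap of 8.42 ± 0.10. EdulChr104G00320990 went the other way, from -1.98 to 3.79, a gap of -5.77 ± 0.13.

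The other 3 are among the most abundant genes. EdulChr50G00183490 was at 0.39 at middle and -2.58 at late swelling, a gap of 2.97 ± 0.09. EdulChr7G00030160 was at 0.85 and -1.94, a gap of 2.79 ± 0.09. EdulChr70G00237910 was at 1.03 and -0.28, a gap of 1.31 ± 0.09. In the shifted comparison these 3 genes were at -0.60, -0.52 and -0.04.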

How the results depend on the processing

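Of the values under alternatives for the main results, 223 kept their direction and stayed within their limits, 15 moved and 2 reversed; the cause was not tested except where the alternative itself uses fewer genes. For single genes and the EdulChr47 group, 659 values stayed, 15 moved, 5 lost a call and 1 gained one. A pseudocount of 0.1 gave 16533 genes 2-fold different in the shifted comparison and 6555 kept genes within 1 log2 unit there. It also gave 3171 genes higher and 2263 genes lower in all 4 comparisons. Only the last of these counts was listed as moved. Keeping a mean TPM of at least 5, which tests fewer genes, left 14804 genes past the adjusted p, 4195 of the kept genes lower in the shifted comparison, and 9421 and 9581 genes 2-fold different at middle and late swelling. Median-of-ratios scaling gave 1466 higher and 2265 lower in all 4 comparisons. Requiring 1 TPM in all 6 libraries, which keeps fewer genes, gave 4819 higher and 3190 lower in the shifted comparison. It also gave 5386 and 6689 remaining from middle and late swelling, and 774 lower in all 4. A 4-fold threshold left 5138 genes, and a limit of 0.5 log2 units left 3257 within it. The difference in the share of the most abundant genes was 0.33 points with 100 genes. The difference in genes detected was -1350 at 0.1 TPM and 93.7 at 5 TPM. The difference in the share of IDs without the prefix was -0.96 points without novel1867, an alternative chosen after seeing the data. EdulChr19G00077640 in the shifted comparison lost its call with a pseudocount of 0.1 (0.47) and after scaling (0.12), as did EdulChr55G00197970 after scaling (0.02). Leaving out each library in turn gave 22821 to 22880 genes past the adjusted p, 12838 to 12902 genes 2-fold different, 6296 to 6350 higher and 6319 to 6355 lower. The replicate numbers of the titles were not used to pair the libraries in the main fit. Deviations of same-numbered libraries correlated at 0.13, -0.06 and 0.12, and those of differently numbered ones at -0.18 to 0.09. Whether the numbers pair the libraries was not tested. With the number as a replicate block, 12827 genes were 2-fold different, 6303 higher and 6332 lower among the kept genes. Depth limits cannot be stated from TPM.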
